A study of Mus musculus with 4 samples.

Results

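The integrins and laminins, a receptor family and one of the matrix ligand families it binds, were followed in RNA from bone marrow mesenchymal stem cells. Members were taken by gene symbol alone: every integrin alpha chain, every integrin beta chain from Itgb1 to Itgb8, and every laminin alpha, beta and gamma chain with a row in the count table. The rule gave 37 genes of 54532, made up of 18 alpha chains, 8 beta chains and 11 laminin chains. All 37 were protein coding in GENCODE M21, and 35 had enough reads to be tested. The 2 that did not were Itgb6, with at most 1 read in a library, and Lamc3, with at most 8. The cells came from 2 control mice carrying floxed Rheb alleles (rhebFL/FL) and from 2 littermates with the same alleles plus Ucp1-cre. The Ucp1 promoter drives Cre in brown adipocytes, so the deletion was aimed at a tissue other than the one profiled. All 4 animals were C57BL/6J, 1 month old and given as male, with 1 library for each animal. The comparison asks whether adhesion receptors and laminins of marrow stromal preparations differ when Rheb is deleted in brown fat.

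An integrin is a pair of an alpha and a beta chain that spans the cell membrane and ties matrix or another cell to the actin skeleton. The beta chain Itgb2 pairs with Itgal, Itgam, Itgax and Itgad on leukocytes alone, and Itgb7 pairs with Itga4 and Itgae on lymphocytes and some myeloid cells. Itgb1 pairs with most collagen, laminin and fibronectin receptors of adherent cells. Laminins are trimers of an alpha, a beta and a gamma chain and form the sheet on which basement membranes are built. In marrow they surround sinusoids, arterioles and fat cells. For the description the integrins were placed in 4 classes by textbook expression: 7 leukocyte chains, 12 stromal chains of adherent and tissue cells, 5 broad chains that both kinds of cell use, and 2 chains of platelets and osteoclasts. The stromal class includes Itgb4, which is best known from epithelia.

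Library totals ran from 17425669 to 19001878 counts. Rheb had 89.7 and 81.5 CPM (counts scaled to the library's total) in controls and 129 and 121 CPM in the other group, which is therefore called labelled knockout. Cre was not meant to act in these cells, so this does not check the deletion. Both replicates 1 were rich in Xist, which silences an X chromosome in females (19502 and 31103 counts, against 8 and 2 in the replicates 2), and had 0 counts of Y-linked Ddx3y, against 1945 and 1631. The labels call all 4 animals male, so values within each replicate number are given beside the group values. Stromal markers were abundant in every library, with 205320 to 310035 counts of Col1a1, a type I collagen chain. Reads of macrophage genes were present as well, with 11211 to 15047 counts of Csf1r, the receptor that macrophages need to survive.

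No integrin or laminin gene passed the test. edgeR's quasi-likelihood test called 0 of the 35 members and 0% of all 14963 tested genes at an adjusted p under 0.05, and every member had an adjusted p of 1. DESeq2 called 0 members, where it called 0.154% of all genes. An unadjusted p under 0.05 by edgeR was found for 2 members, Lama5 and Itgax, or 5.71%, beside 1.86% of all genes. The labelled knockout libraries lay above both controls for 6 members (17.1%), beside 10.8% of all genes. They lay below both controls for 0 members, beside 11.3% of all genes. Of the 35 members, 24 had a log2 fold change above 0, with a median of 0.17, where the median of all tested genes was -0.01. For a single value, exact permutation of 2 libraries against 2 gives a two-sided p of 0.333 at best, so the p-values printed here lean on the variance that edgeR pools over genes.

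The members spanned a wide range of levels, which are compared between genes as CPM divided by exon length in kilobases (RPKM). Itgb1, the shared beta chain of matrix receptors, was highest with 445 and 388 RPKM in controls, against 469.9 and 368 RPKM in the labelled knockout libraries. The next levels belonged to Itgb2 (mean of the 4 libraries 131 RPKM), Itgb5, a vitronectin receptor chain (130.5 RPKM), and Itga11, a collagen receptor chain of fibroblasts (128 RPKM). Itga5, the fibronectin receptor chain, followed at 93.5 RPKM. Itgb2 and Itga11 overlapped across libraries with each other, Itgb5 and Itga5, so their places in the order are not resolved, while Itgb5 lay above Itga5 and Itgb1 above all 4 in every library. Lamc1 at 43.3 RPKM and Lamb1 at 33.6 RPKM were the highest laminin chains. At the other end of the tested genes Itgb4, Lama3, Lamb3 and Itgae had means of 0.0728 to 0.174 RPKM. Itgb4 and the trimer chains Lama3 and Lamb3 are best known from epithelia, where they anchor cells to the basement membrane.

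**Figure D1:**
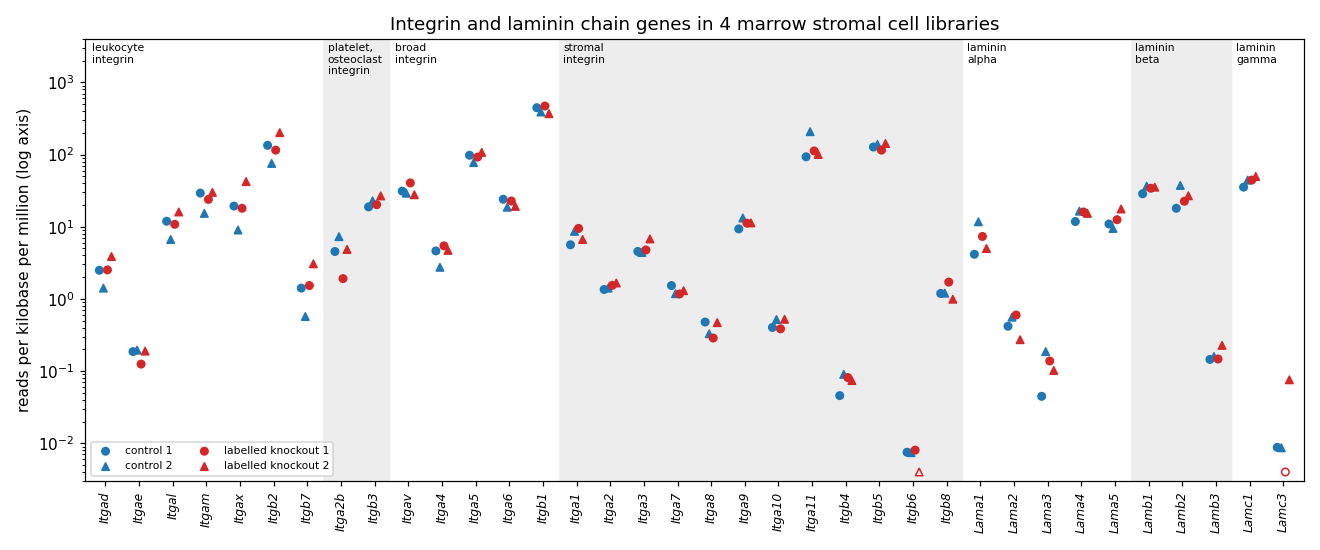
Level of the integrin and laminin genes in each library, in RPKM on a log axis, with circles for replicate 1, triangles for replicate 2 and open symbols at the bottom edge for a count of 0. Itgb1 lies highest at 368 to 469.9 RPKM, and Itgax and Itgb7 spread more between libraries than Itgb5 or Lamb1 do.

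Leukocyte integrins varied widely between libraries of the same group. Summed over the 7 chains their level was 199 and 108 RPKM in control replicates 1 and 2, and 172 and 296 RPKM in labelled knockout replicates 1 and 2. Control replicate 2 was lowest and labelled knockout replicate 2 highest, and the groups overlapped. Of the 7 chains, 6 were lowest in control replicate 2, where 26.5% of all tested genes had their lowest value, and 6 were highest in labelled knockout replicate 2, where 26.4% of all genes were highest. The exception in both counts was Itgae, which had few reads.

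Itgb2, the beta chain common to the leukocyte receptors (ENSMUSG00000000290; chromosome 10, 77530252 to 77565708, plus strand), had 409 and 229.8 CPM in controls, against 352 and 613 CPM in the labelled knockout libraries. Its log2 fold change was 0.59 (SE 0.36, edgeR adjusted p = 1), with a log2 ratio of -0.22 within replicate 1 and 1.41 within replicate 2. Itgal, the chain that lets lymphocytes and myeloid cells hold ICAM proteins, had 78.5 and 43.7 CPM in controls, against 70.8 and 105 CPM in the labelled knockout libraries. Itgam, a complement receptor chain of macrophages and neutrophils, had 147 and 76.7 CPM against 120.1 and 150.3 CPM. All 3 genes had their lowest value in control replicate 2 and overlapped between groups.

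Itgax, a chain of dendritic cells and some macrophages (ENSMUSG00000030789; chromosome 7, 128129547 to 128150657, plus strand), stood further apart. It had 92.9 and 43.2 CPM in controls, against 86.5 and 203 CPM in the labelled knockout libraries, a log2 fold change of 1.09 (SE 0.46, edgeR adjusted p = 1, unadjusted p = 0.0450). Labelled knockout replicate 1 lay between the controls, and labelled knockout replicate 2 lay above both. Per length, Itgax was 0.661 and 0.590 times the level of Itgam in controls, and 0.753 and 1.41 times in the labelled knockout libraries. The size of that ratio is uncertain, because much of the Itgam exon sequence is shared with another annotated gene. Itgb7, the chain that directs lymphocytes to gut, had 3.90 and 1.58 CPM in controls, against 4.23 and 8.47 CPM in the labelled knockout libraries. Its log2 fold change was 1.21 (SE 0.53, edgeR adjusted p = 1), the largest in size among the members, and its groups did not overlap. The gap was narrow within replicate 1, at 73 against 74 counts. Itgad, a chain of tissue macrophages, had 11.2 and 6.37 CPM against 11.4 and 17.4 CPM, again with a log2 ratio near 0 within replicate 1 (0.02) and a large one within replicate 2 (1.44). The groups of Itgad did not overlap either. Itgb7 and Itgad were the 2 of 7 leukocyte chains (28.6%) for which this held, beside 10.8% of all genes that lay higher in this way. Itgae, a chain of lymphocytes in epithelia and of some dendritic cells, had 10 to 17 counts in each library.

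The leukocyte values depended on which library was left out. Over all 4 libraries 6 of the 7 chains had a log2 fold change above 0, with a median of 0.59. Within replicate 1 only 2 of 7 were higher (median -0.15), and within replicate 2, 6 of 7 were higher (median 1.41). Without control replicate 1 the median was 1.07, and edgeR called Itgax (log2 fold change 1.74, adjusted p = 1.85e-04) and Itgb7 (2.00, adjusted p = 0.0236), among 183 genes called in that fit. Without control replicate 2 the median was 0.24 with 0 members called, and without labelled knockout replicates 1 and 2 in turn it was 0.94 and 0.23. In such a fit the lone library of a group is assumed to vary like the others.

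Most markers of macrophages and neutrophils, cells that carry these receptors, shared their lowest library but not their highest. The summed level of 8 pan-leukocyte and macrophage markers was 6668 and 4410.3 RPKM in controls, against 4965 and 6215 RPKM in the labelled knockout libraries, and 7 of the 8 were lowest in control replicate 2 while 3 of 8 were highest in labelled knockout replicate 2. The 8 neutrophil markers summed to 3276 and 1087 RPKM in controls, against 2211 and 2611 RPKM in the labelled knockout libraries, with 8 of 8 lowest in control replicate 2 and 2 of 8 highest in labelled knockout replicate 2. Both sums were highest in control replicate 1. Dendritic cell markers summed to 137 and 106 RPKM against 112 and 250.3 RPKM, led by Cd74 and the MHC class II genes H2-Aa and H2-Ab1. Zbtb46, a transcription factor of classical dendritic cells, had the other order, with 273 and 256 counts in controls and 216 and 196 in the labelled knockout libraries (log2 fold change -0.25, SE 0.26, edgeR adjusted p = 1). The dendritic genes Flt3, Ccr7, Cd209a and Xcr1 had at most 7 counts in a library, and the T cell gene Cd3e had at most 6. The 7 osteoclast markers summed to 111 and 70.8 RPKM in controls, against 92.2 and 115 RPKM in the labelled knockout libraries. Of the 6 tested, 4 were lowest in control replicate 2 and 4 were highest in labelled knockout replicate 2. Ctsk had the other order, highest in control replicate 2 and lowest in labelled knockout replicate 2. In bulk RNA fewer cells of a type and less RNA in each cell cannot be told apart, and the part of these markers in the integrin values was not tested. Relative to Ptprc, the phosphatase on all white blood cells, the summed leukocyte integrins were at 11.3 and 13.3 times its level in controls and 9.98 and 19.2 times in the labelled knockout libraries. Labelled knockout replicate 2 thus stayed highest on that scale too.

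**Figure D2:**
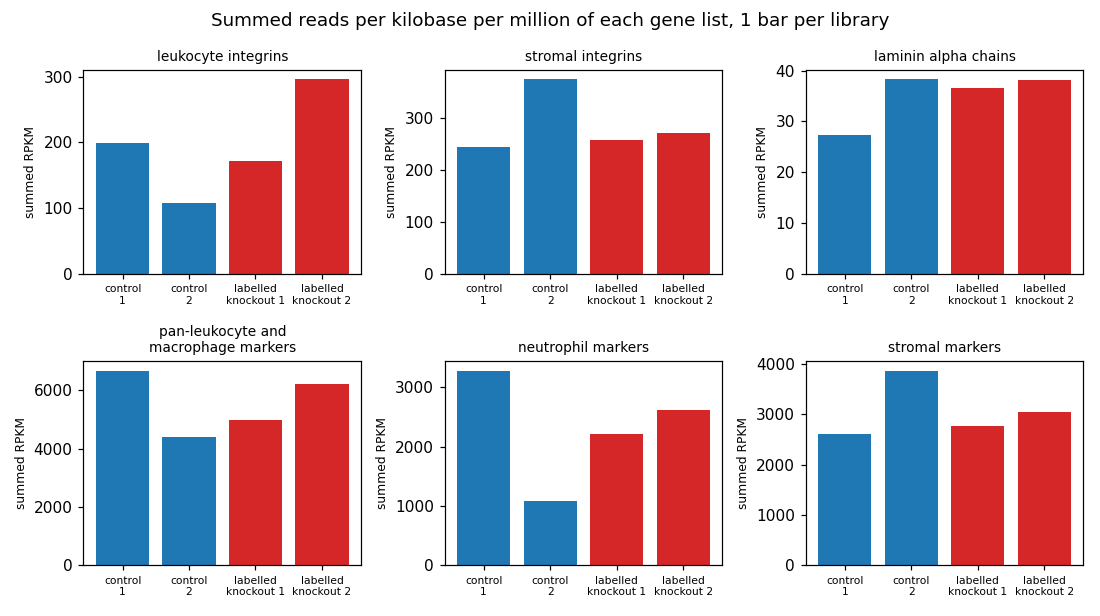
Summed RPKM for 3 member classes and 3 marker lists, with 1 bar for each library and no error bars because a bar is a single library. Leukocyte integrins run from 108 in control replicate 2 to 296 in labelled knockout replicate 2, while stromal integrins reach 375 in control replicate 2.

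Levels of Itgb2 and of its alpha partners kept close to one ratio. Per length, Itgb2 stood at 2.13 and 2.33 times the sum of Itgal, Itgam, Itgax and Itgad in controls and at 2.09 and 2.18 times in the labelled knockout libraries, although the sum itself varied with the library. The partners Itgam, Itgax and Itgad lie side by side on chromosome 7, at 128062640 to 128118491, 128129547 to 128150657 and 128154376 to 128223816, all on the plus strand. Itgam shares 68.7% of its exon bases with the annotated gene Gm49368 on the same strand, which had 4 reads over the 4 libraries. Itgam had 8920 reads, so reads lying in both genes were not counted for both. Whether they were left out or given to Itgam is not stated in the sources used here. If they were left out, the level of Itgam is too low in every library. The ratios of Itgax to Itgam and of Itgb2 to its partners would then be too high. The summed leukocyte level and its ratios to the stromal sum and to Ptprc would be too low. Of the 50-base stretches in Itgad transcripts 19.7% also occurred in other genes, 384 of them in Itgax, so its count is uncertain. The shares were 8.02% for Itgax and 0% for Itgal.

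Promoter windows from RefSeq (GRCm38.p6, 250 bases before to 50 after a start) matched 23 of the 37 genes, 3 of them leukocyte chains. The 3 leukocyte windows are shown because these chains varied together between libraries, and that of Itga11 because it was highest where they were lowest. Capitals mark matches on either strand to the purine-rich core GAGGAA that ETS-family factors of myeloid cells can bind, the GC box GGGCGG, or the AP-1 site TGACTCA. The first 3 lines are chr7:128062390-128062689 (plus), chr7:128129300-128129599 (plus) and chr15:102231886-102232185 (minus), and the last is chr9:62677605-62677904 (plus).
Itgam: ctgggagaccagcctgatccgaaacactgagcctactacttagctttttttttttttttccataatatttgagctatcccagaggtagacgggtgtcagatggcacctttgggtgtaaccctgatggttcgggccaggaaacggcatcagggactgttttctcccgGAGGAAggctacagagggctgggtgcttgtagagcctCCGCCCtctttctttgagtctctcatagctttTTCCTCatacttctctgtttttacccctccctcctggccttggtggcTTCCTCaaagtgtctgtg
Itgax: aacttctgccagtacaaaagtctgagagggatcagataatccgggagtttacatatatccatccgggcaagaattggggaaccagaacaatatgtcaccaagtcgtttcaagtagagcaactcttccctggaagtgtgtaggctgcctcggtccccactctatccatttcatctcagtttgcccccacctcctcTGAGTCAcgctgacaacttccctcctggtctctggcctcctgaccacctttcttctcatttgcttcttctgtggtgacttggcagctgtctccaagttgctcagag
Itgb7: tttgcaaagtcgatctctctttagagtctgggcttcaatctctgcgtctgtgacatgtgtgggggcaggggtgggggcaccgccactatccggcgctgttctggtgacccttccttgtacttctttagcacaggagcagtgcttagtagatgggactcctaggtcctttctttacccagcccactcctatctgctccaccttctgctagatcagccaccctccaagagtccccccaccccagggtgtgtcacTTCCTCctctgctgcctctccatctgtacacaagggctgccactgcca
Itga11: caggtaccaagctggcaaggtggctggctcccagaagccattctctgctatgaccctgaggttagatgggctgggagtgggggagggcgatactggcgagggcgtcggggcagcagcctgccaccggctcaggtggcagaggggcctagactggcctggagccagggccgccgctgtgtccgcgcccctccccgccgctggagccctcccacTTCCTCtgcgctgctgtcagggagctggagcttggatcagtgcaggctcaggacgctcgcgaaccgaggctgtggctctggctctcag

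The window of Itgam held 3 matches to GAGGAA and 1 to GGGCGG, and that of Itgax held 1 match to TGACTCA alone. Itgb7 and Itga11 had 1 match each to GAGGAA. Windows were found for 10 stromal chains and only that of Itga11 is shown, so the classes were not compared by motif. Among the 26 member windows 14 held GAGGAA, 12 GGGCGG and 2 TGACTCA. Of 32851 windows of the same length 28.3% held GAGGAA, 35.7% GGGCGG and 5.20% TGACTCA. No motif overlapped another in the windows shown.

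The sum of the stromal integrins ran against that of the leukocyte chains in 1 library. It was 245 and 375 RPKM in controls, against 258 and 271 RPKM in the labelled knockout libraries, with control replicate 2 highest. Of the 11 tested stromal chains only 3 were highest there (27.3%), beside 27.2% of all tested genes. The log2 ratio of leukocyte to stromal sums was -0.30 and -1.79 in controls and -0.58 and 0.12 in the labelled knockout libraries, so the groups overlapped. As a fold, leukocyte chains stood at 0.811 and 0.289 times the stromal level in controls and at 0.669 and 1.09 times in the labelled knockout libraries. Itgam enters the leukocyte sum, so these folds would be too low if its shared reads were left out. The ratio was -0.28 on the log2 scale within replicate 1 and 1.92 within replicate 2. Its group difference of 0.82 became 0.07 without control replicate 2, 1.56 without control replicate 1, and 1.17 and 0.47 without labelled knockout replicates 1 and 2.

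Itga11, a collagen receptor chain of fibroblasts and osteogenic cells (ENSMUSG00000032243; chromosome 9, 62677826 to 62783982, plus strand), made most of that peak. It had 477 and 1059.6 CPM in controls, against 574 and 514 CPM in the labelled knockout libraries, a log2 fold change of -0.50 (SE 0.37, edgeR adjusted p = 1). Control replicate 2 was the highest library by a wide margin and the remaining 3 lay close together. Without control replicate 2 the log2 fold change was 0.20. That library also had the most reads of stromal markers, whose sum was 2610.5 and 3867 RPKM in controls, against 2771 and 3051 RPKM in the labelled knockout libraries, with 8 of 11 markers highest there. The 7 osteoblast markers gave a mixed picture. Their sum was lowest in control replicate 2, at 1044 and 599 RPKM in controls and 799.8 and 822 RPKM in the labelled knockout libraries, and was led by Spp1, osteopontin, which macrophages also make. Of the 5 tested, Alpl, Ibsp, Sp7 and Runx2 were highest in control replicate 2 and Spp1 was lowest there. The osteoblast factor Sp7 had 141 and 587 counts in controls and 92 and 59 in the labelled knockout libraries. DESeq2 called Sp7 (adjusted p = 0.0329), Alpl (0.0298) and Ibsp (0.0229), and edgeR called none of these 3 (adjusted p = 1). The part of these markers in the level of Itga11 was not tested.

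Other stromal chains varied less or in another order. Itgb5 was the steadiest of the abundant members, with 453 and 489.8 CPM in controls, against 409 and 503 CPM in the labelled knockout libraries. Itga1, a collagen receptor chain, had 105 and 161 CPM against 176 and 124 CPM, so that its log2 ratios were 0.75 for replicate 1 and -0.38 for replicate 2. Itga9, which binds tenascin and osteopontin, had 71.8 and 101 CPM in controls, against 86.3 and 87.1 CPM in the labelled knockout libraries, with a log2 fold change of 0.00 (SE 0.22). The laminin receptor chain Itga3 and the collagen receptor chain Itga2 had groups that did not overlap. These were 2 of the 11 tested stromal chains (18.2%), beside 10.8% of all genes that lay higher in this way. Itga3 had 25.9 and 25.1 CPM in controls, against 27.2 and 38.7 CPM in the labelled knockout libraries (log2 fold change 0.37, SE 0.26, edgeR adjusted p = 1). Itga2 had 9.66 and 10.1 CPM against 11 and 11.8 CPM (log2 fold change 0.21, SE 0.27). Among the low chains Itgb8, which releases active TGF-beta, had 10.9 to 18.9 CPM and Itga7, a laminin receptor chain of muscle, 9.48 to 12.4 CPM. Itga8 and Itga10 had 2.00 to 3.52 CPM, and Itgb4 had 6 to 12 counts. Reads of Itga10 are uncertain because 33.5% of its exon bases also belong to Gm42957. The 11 tested stromal chains had 6 log2 fold changes above 0 and 5 below, with a median of 0.00.

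**Figure D3:**
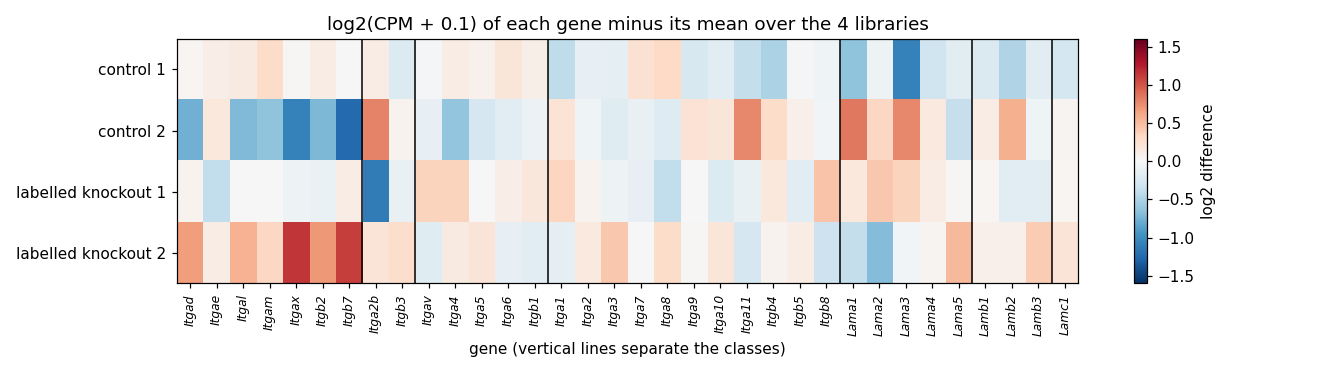
Tested integrin and laminin genes, each as its log2(CPM + 0.1) minus its mean over the 4 libraries, with libraries in rows and genes in columns grouped by class. The leukocyte chains other than Itgae are blue in control replicate 2 and red in labelled knockout replicate 2, and Itga11, Lama1, Lama3 and Lamb2 are red in control replicate 2.

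The broad chains showed small differences. Itgb1 had 1817 and 1584 CPM in controls, against 1918 and 1503 CPM in the labelled knockout libraries, a log2 fold change of 0.01 (SE 0.27), and was lower in replicate 2 of each group. Itgav, the chain that with several beta partners reads RGD peptides in vitronectin and osteopontin, had 335 and 312 CPM against 435 and 298 CPM. Itga6, the laminin receptor chain of marrow progenitors and endothelium, had 217 and 168 CPM against 205 and 173 CPM. Itga5 had 482 and 381 CPM in controls, against 455 and 527 CPM in the labelled knockout libraries. Only Itga4, which binds VCAM1 and fibronectin on blood cells and their progenitors, had groups that did not overlap among these 5 (20%, beside 10.8% of all genes). It had 64.6 and 38.3 CPM in controls, against 76.0 and 65.7 CPM in the labelled knockout libraries (log2 fold change 0.46, SE 0.27, edgeR adjusted p = 1). As with most leukocyte chains its lowest value was that of control replicate 2. Cerkl overlaps 8.04% of its exon bases on the opposite strand, and without strand their reads cannot be told apart.

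Itga2b and Itgb3 form the fibrinogen receptor of platelets, and Itgb3 also serves osteoclasts with Itgav. Itga2b (chromosome 11, 102453297 to 102470122, minus strand) had 24.7 and 39.7 CPM in controls, against 10.4 and 26.4 CPM in the labelled knockout libraries. Labelled knockout replicate 1 was lowest, and labelled knockout replicate 2 lay within the range of the controls. Both within-replicate log2 ratios were below 0, at -1.24 for replicate 1 and -0.59 for replicate 2. All 7 tested megakaryocyte and platelet markers had log2 fold changes below 0, with a median of -0.78. Of all tested genes 48.8% lay above 0. For 5 of the 7 markers the labelled knockout libraries lay below both controls, beside 11.3% of all genes. Highest in control replicate 2 were 5 of the 7, beside 27.2% of all genes. Their sum was 264 and 202 RPKM in controls, against 186 and 234 RPKM in the labelled knockout libraries, and Gp1bb was at 0 in all 4. Their part in the level of Itga2b was not tested. Itgb3 had 111 and 135 CPM in controls, against 119 and 158 CPM in the labelled knockout libraries, and was highest in labelled knockout replicate 2, where Itga2b was highest in control replicate 2.

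**Figure D4:**
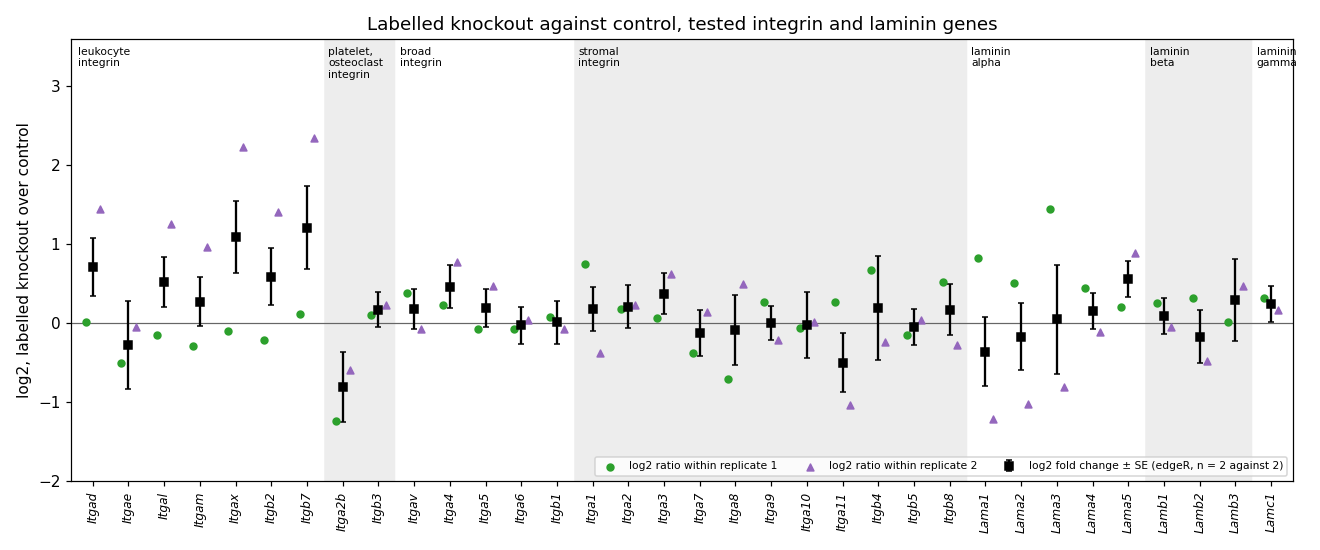
Log2 fold change of labelled knockout over control for the tested genes, as black squares with bars for the standard error (edgeR, 2 libraries against 2), beside the log2 ratio within replicate 1 (circles) and within replicate 2 (triangles). For Itgax the ratios are -0.10 and 2.23 and for Lama1 0.82 and -1.22, while for Lama5 both lie above 0.

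Among the laminins Lama5 had the largest log2 fold change in size, without passing the test. Lama5, an alpha chain of mature endothelial and epithelial basement membranes (ENSMUSG00000015647; chromosome 2, 180176373 to 180225859, minus strand), had 124 and 108 CPM in controls, against 142 and 200.2 CPM in the labelled knockout libraries. The log2 fold change was 0.56 (SE 0.23, edgeR adjusted p = 1, unadjusted p = 0.0419), with log2 ratios of 0.20 for replicate 1 and 0.89 for replicate 2. It was the sole laminin chain of the 10 tested whose groups did not overlap (10%). Of all tested genes 10.8% lay higher in this way, so the share is no larger than over all genes. Leaving out single libraries gave log2 fold changes of 0.31 to 0.79 for Lama5. Endothelial markers summed to 153 and 179.6 RPKM in controls, against 186 and 224 RPKM in the labelled knockout libraries. All 8 of them had log2 fold changes above 0, as had 48.8% of all genes, and their part in the level of Lama5 was not tested.

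Lama4, the alpha chain of endothelial, fat and muscle basement membranes, had the highest mean level of the alpha chains per length, 14.9 RPKM beside 12.6 RPKM for Lama5, though their libraries overlapped. It had 11.8 and 16.4 RPKM in controls, against 16.0 and 15.3 RPKM in the labelled knockout libraries, a log2 fold change of 0.15 (SE 0.23). Lama1, best known from the embryo and from epithelial and neural basement membranes, was highest in control replicate 2 like Itga11, with 40.2 and 113 CPM in controls, against 70.9 and 48.3 CPM in the labelled knockout libraries. Its log2 ratios were 0.82 for replicate 1 and -1.22 for replicate 2, and its log2 fold change of -0.36 (SE 0.44) became 0.58 without control replicate 2. Lama2, the muscle and nerve chain, had 4.44 to 9.77 CPM, and Lama3 9 to 38 counts.

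The beta and gamma chains were led by Lamb1 and Lamc1, which enter most laminin trimers. Lamc1 had 292 and 366 CPM in controls, against 365 and 410.3 CPM in the labelled knockout libraries, a log2 fold change of 0.24 (SE 0.23, edgeR adjusted p = 1). Labelled knockout replicate 1 lay just under the higher control. Lamb1 had 283 and 361 CPM against 338 and 349.8 CPM (log2 fold change 0.09, SE 0.23). Both were lowest in control replicate 1. Lamb2, a chain of vessel, kidney and synaptic basement membranes, had 109.5 and 227 CPM in controls, against 137 and 163 CPM in the labelled knockout libraries, again highest in control replicate 2. Without that library its log2 fold change went from -0.17 to 0.46. Lamb3 had 17 to 26 counts. Summed per length the alpha chains stood at 27.4 and 38.3 RPKM in controls and at 36.6 and 38.2 RPKM in the labelled knockout libraries, below the beta chains at 46.7 and 73.9 RPKM against 56.8 and 62.3 RPKM. Of the 10 tested laminins 7 had log2 fold changes above 0, with a median of 0.12. The count was 9 of 10 within replicate 1 (median 0.32) and 4 of 10 within replicate 2 (median -0.08). Without control replicate 2 the median over all laminins was 0.41, and without control replicate 1 it was -0.07.

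The wider pathway was read from 4 lists of genes around integrins and laminins, and 0 of their members passed edgeR's test over all genes. Among 11 partners of laminin in basement membranes 9 had log2 fold changes above 0 (median 0.23). Ntn4, a netrin that binds laminin, gave a log2 fold change of 0.54 (SE 0.35), the laminin receptor gene Bcam 0.41 (SE 0.27), and the type IV collagen gene Col4a1 0.43 (SE 0.30). Col4a1 had 1135 and 1669 CPM in controls, against 1702 and 2066 CPM in the labelled knockout libraries, so its groups did not overlap. The labelled knockout libraries lay above both controls for 2 of the 11 partners (18.2%), beside 10.8% of all genes. Of 11 tested matrix ligands of integrins 3 were above 0 and 8 below (median -0.12). Npnt, nephronectin, the ligand of the chain Itga8, had 6.89 and 9.74 CPM in controls, against 3.94 and 3.46 CPM in the labelled knockout libraries. Its log2 fold change was -1.17 (SE 0.34, edgeR adjusted p = 1, unadjusted p = 0.00941), and it was lower within both replicate numbers (-0.79 and -1.47). Edil3, a matrix ligand of Itgav receptors, gave a log2 fold change of -0.53 (SE 0.32) and Postn, periostin, -0.45 (SE 0.29).

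Counter-receptors on other cells and the proteins that switch integrins on gave medians near 0. Of 6 tested counter-receptors 3 were above 0 and 3 below (median 0.04). Icam1, which Itgal and Itgam receptors bind, had 20.4 and 16.0 CPM in controls, against 19.8 and 32.6 CPM in the labelled knockout libraries, highest in labelled knockout replicate 2 like its receptors. Jam3 gave a log2 fold change of -0.36 (SE 0.28), and Vcam1, the ligand of Itga4, one of 0.26 (SE 0.27). Of 28 tested activators and adhesion complex genes 17 were above 0 and 11 below (median 0.06). The docking protein gene Bcar1 gave a log2 fold change of 0.29 (SE 0.20), vinculin (Vcl) 0.28 (SE 0.22) and talin (Tln1) 0.30 (SE 0.25). For all 3, which were named for their small p, the labelled knockout libraries lay above both controls. That held for 4 of the 28 tested (14.3%), beside 10.8% of all genes. Tln1 had 777 and 828 CPM in controls, against 885 and 1091 CPM in the labelled knockout libraries.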

How the data were processed

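Per the labels' protocols, Trizol RNA went into TruSeq v2 libraries of mRNA; that kit leaves strand unmarked. The deposited table holds raw read counts per Ensembl gene with exon coordinates and exon length. Trimmomatic, HISAT2, featureCounts and the build mm10 are named in the submitters' processing notes; versions, the annotation release and the handling of shared reads are not given in the sources used here. Gene spans equalled GENCODE M21 (GRCm38) for all 37 members. The mapping of columns to samples and the replicate numbers came from sample titles.

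Counts were tested with edgeR 4.0.16 in R 4.3.3 on genes kept by filterByExpr (14963), with TMM scaling, a model of group alone, and Benjamini-Hochberg adjustment over these genes at 0.05. The SE is the absolute log2 fold change over the square root of F. CPM used TMM-scaled library sizes, and log2 ratios within a replicate number used CPM + 0.1. RPKM is that CPM over exon length in kilobases. The floor behind a 0 was set at 3 counts per library (0.158 to 0.173 CPM), which covers counting error only. Sums and medians of lists were described without a test. Members are named with their values, except 1 that is not reported here and enters only counts, sums and medians; of each other list up to 3 genes are named by smallest p. Members and lists were chosen with earlier results of these data known, and the motifs with the sequences in view. Alternatives were DESeq2 1.42.0, limma-voom (limma 3.58.1), other scalings and filters, a replicate block and leaving out each library. The tests were checked on 5 simulated data sets. Exon overlaps came from the table, and shared 50-base stretches from GENCODE M21 transcripts. Figures used matplotlib 3.10.9.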

Additional observations from a re-analysis of the deposited data

How the results depend on the processing

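With 2 libraries in each group, single libraries decided most directions. Of the 34 tested genes given here 13 kept their direction under every alternative and leave-out run, and 21 changed sign when 1 library was left out, all without a call. Their log2 fold changes over the 4 leave-outs ran over these ranges: Itga1 (-0.10 to 0.53), Itga10 (-0.24 to 0.18), Itga11 (-0.96 to 0.20), Itga6 (-0.19 to 0.17), Itga7 (-0.30 to 0.06), Itga8 (-0.48 to 0.22), Itga9 (-0.23 to 0.28), Itgam (-0.11 to 0.82), Itgav (-0.12 to 0.44) and Itgb1 (-0.18 to 0.19). For the rest the ranges were Itgb3 (-0.03 to 0.36), Itgb4 (-0.21 to 0.76), Itgb5 (-0.19 to 0.09), Itgb8 (-0.27 to 0.53), Lama1 (-0.92 to 0.58), Lama2 (-0.84 to 0.31), Lama3 (-0.63 to 1.42), Lama4 (-0.07 to 0.41), Lamb1 (-0.07 to 0.29), Lamb2 (-0.60 to 0.46) and Lamb3 (-0.04 to 0.57). Without the low-count filter Itga9 was at -0.0046; its value over all libraries was 0.0019, the stromal median was -0.02 there, and no other gene's sign changed under another scaling, filter or tool. Members called numbered 0 to 2 over the leave-outs, the 2 being Itgax and Itgb7 without control replicate 1, and 0 under the other alternatives. The medians over the leave-outs ran from -0.10 to 0.20 for stromal integrins and from -0.07 to 0.41 for laminins, and the cause was not tested. Over all genes edgeR called 0 to 183 in the leave-outs, DESeq2 called 23, and DESeq2 with a replicate block called 14. The samples share a number and no stated origin. Across 14963 genes, the difference between replicates 2 and 1 in one group correlated with that in the other at r = 0.245. edgeR with a replicate block called 0 genes and left the leukocyte median at 0.60. The leukocyte to stromal log2 ratio differed by 0.82 between groups, and by 0.67 with broad chains counted as stromal, 0.58 as a mean of log2 values and 0.80 on summed CPM. Depth limits Itgae, Itgb4, Itgb6, Lama3, Lamb3 and Lamc3, which had at most 38 counts in a library.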
